A study of Mus musculus with 6 samples.

Results

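Taf10 and the 3 genes for the proteins that pair with TAF10, namely Taf8, Taf3 and Supt7l, were followed in mouse presomitic mesoderm, the unsegmented tail tissue that gives rise to somites. The members were all probe sets whose only gene symbol was one of these 4, each read separately. This gave 5 of the 16311 single-symbol probe sets on the array, 2 of them for Taf10. Tissue was dissected at embryonic day 9.5 from embryos of 17 to 19 somites, and each of 6 arrays held the RNA of 3 pooled presomitic mesoderms. The 3 control pools came from Taf10Flox/+ or Taf10flox/flox embryos, labelled WT, and the 3 mutant pools from TCre/+;Taf10flox/flox embryos. All pools therefore carried at least 1 floxed Taf10 allele, and the labels do not give the mix of the control genotypes in each pool. T-Cre acts where the promoter of T (Brachyury) is active, in cells of the primitive streak and early mesoderm, so a dissected piece can hold cells in which the gene was not deleted. The share of such cells was not measured. Pools are biological replicates according to their labels, so that p-values refer to the spread between them. In pooled tissue RNA, fewer cells of a type and less RNA per cell cannot be told apart.

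TAF10 carries a histone fold, a short helical domain that pairs with a matching fold in another protein. In TFIID, the complex that places RNA polymerase II at promoters, its partners are TAF8 and TAF3, and in the coactivator SAGA its partner is SUPT7L. TAF10 has no nuclear import signal of its own and enters the nucleus with a partner, and TAF8 also links TAF10 to TAF2. TAF3 reads the trimethylated lysine of histone H3 found at active promoters through its PHD finger.

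The tissue was checked by its markers. At a limma adjusted p under 0.05, 5.96% of all single-symbol probe sets were called in either direction. The presomitic marker T was not among those measured. Of 9 measured presomitic markers, Tbx6 and Hes7 rose, Rspo3 and Cyp26a1 fell and 5 did not pass. Their summed intensity was 23049 to 23990 in controls and 26343 to 28200 in mutants. None of the 5 measured markers in each of the lists for somite, neural tube, blood, endothelium and gut endoderm passed limma's threshold, nor did those for surface ectoderm (4) or notochord (2). The summed blood markers ran from 9162 to 22193 in controls and from 3850 to 16455 in mutants, so the groups overlapped. No probe set of the table was at 0. Mutant 3 stood apart, at a root mean square distance of 0.184 log2 units from its group mean against 0.0762 to 0.112 for the other arrays. Control 3 had an Xist level of 6.32 on the log2 scale against 11.3 to 12.6 elsewhere, so the sexes were not balanced between pools. The part of sex and of blood in the results was not tested.

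TFIID acts on the core promoter, so the stretch just before the start of each of the 4 genes is shown as RefSeq gives it for GRCm38.p6. Each line holds the 130 bases before the annotated start, 5′ to 3′ on the strand of the gene. Capitals mark matches to GGGCGG (the GC box), CACGTG (the E box) and CCGGAAG (an ETS core) on either strand.
Taf10, chr7:105744339-105744468, minus strand: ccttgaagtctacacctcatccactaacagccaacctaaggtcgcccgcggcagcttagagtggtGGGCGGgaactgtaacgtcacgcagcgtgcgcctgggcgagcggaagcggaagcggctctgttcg
Taf8, chr17:47502292-47502421, minus strand: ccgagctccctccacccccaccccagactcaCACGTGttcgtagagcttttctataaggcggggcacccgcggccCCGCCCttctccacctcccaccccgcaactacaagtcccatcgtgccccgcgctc
Taf3, chr2:10048610-10048739, minus strand: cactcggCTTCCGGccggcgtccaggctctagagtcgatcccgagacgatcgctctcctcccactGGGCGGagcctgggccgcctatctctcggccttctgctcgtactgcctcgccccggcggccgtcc
Supt7l, chr5:31526763-31526892, minus strand: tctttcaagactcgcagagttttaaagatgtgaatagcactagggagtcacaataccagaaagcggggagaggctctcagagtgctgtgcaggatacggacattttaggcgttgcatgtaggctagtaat
All 4 genes matched an entry of the promoter table. In all, 5 motifs were searched on both strands in the 250 bases before each start, the 3 above with TATAAA (the TATA box) and CCAAT. None of the 4 windows held TATAAA, found in 12.4% of 32841 such windows, or CCAAT, found in 33.9%. The windows of Taf10, Taf8 and Taf3 each held 1 GGGCGG, as did 32.7% of all windows at least once, and that of Supt7l held none. The Taf8 window held 2 copies of CACGTG, 1 of them in the printed stretch, and 6.02% of all windows held at least 1. The Taf3 window held 1 CCGGAAG, found in 6.91%. In G and C content the windows ran from 51.2% for Supt7l to 66.0% for Taf3, against a median of 52.4%. These are matches of letters and say nothing of which factor binds.

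The targeted gene, Taf10, was read by probe sets that differed from each other. The sources used here do not give the exons they read, so neither is a check of the deletion, and the place of the first on the array was not that of Taf10. By probe set 10365288, Taf10 stood at log2 intensities of 10.77, 10.61 and 10.69 in controls 1, 2 and 3 and at 10.40, 10.37 and 10.18 in mutants 1, 2 and 3. All mutant values lay below all control values, with a gap of 0.21 between the groups, and mutant 3 was lowest. The mean went from 10.69 ± 0.08 to 10.31 ± 0.12 (SD, n = 3 each), a fall to 77.1% of control (95% interval 67.6% to 88.0%). On the log2 scale it fell by 0.37 (SE 0.08, limma adjusted p = 0.0400), and it ranked 784 by p among the 16311 probe sets tested.
By probe set 10566525, Taf10 stood at 8.95, 8.89 and 8.79 in the controls and at 8.85, 8.93 and 9.19 in the mutants. The groups overlapped, and mutant 3, lowest by the other probe set, was the highest of the 6 arrays by this one. The log2 change of 0.11 (SE 0.10, 95% interval -0.12 to 0.34, limma adjusted p = 0.530) did not pass. It was 0.01 without mutant 3, 0.07 without control 3 and -0.032 without control 3 and mutant 3 together.

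**Figure D1:**
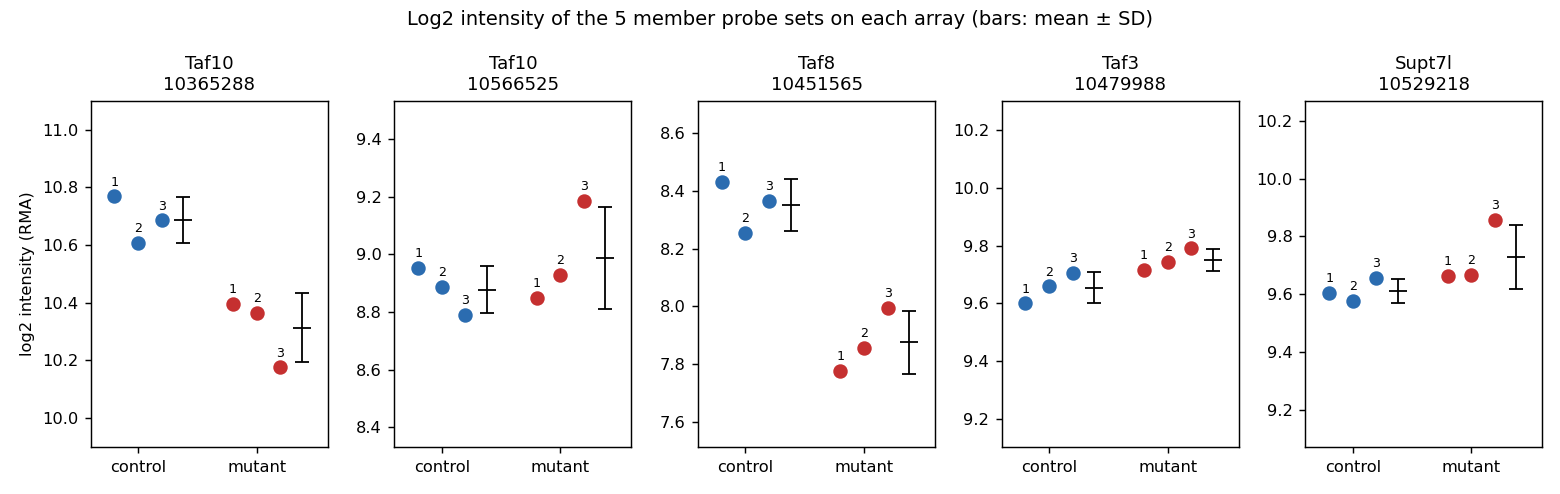
Log2 intensity (y axis, each panel spanning 1.2 log2 units) of the 5 probe sets on the control (blue) and mutant (red) arrays; points are arrays, numbered by replicate, and bars beside them are the mean ± SD of 3 pools. The mutant points of Taf10 10365288 and of Taf8 lie below all control points, those of Taf10 10566525 overlap the controls, and those of Taf3 and Supt7l lie just above.

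The loci for which the probe sets were built were compared through their numbers, which follow the genome on this array: 96.7% of the single-symbol probe sets with a RefSeq chromosome had at least 50% of their neighbours on it. Of the 20 nearest single-symbol probe sets round 10566525, 19 lay on the chromosome of Taf10 (7), with Rrp8 and Tpp1 next to it. Round 10365288, 0 of 20 did. Its nearest neighbours were Eid3 and Chst11 of chromosome 10, and between those genes RefSeq places 1 annotated pseudogene, Gm4799, with a length of 750 bases. The RefSeq entry does not say which gene Gm4799 copies. The platform annotation pairs 10365288 with 5 accessions, among them the Taf10 reference transcript NM_020024, and 10566525 with the single cDNA AK047115, which both share. By the same measure the probe sets of Taf8 (20 of 20), Taf3 (17 of 20) and Supt7l (19 of 19) lay among neighbours from their own chromosomes. The measure gives the chromosome and not the exact locus. Between their nearest neighbours RefSeq places 3 annotated pseudogenes for Taf8 and 1 each for Taf3 and Supt7l.
A probe set away from its gene was uncommon on this array. Of 16281 single-symbol probe sets with a RefSeq chromosome, 510 (3.13%) had at most 10% of their neighbours on it. For the 504 of these with a neighbour on either side, 97.4% of the gaps between those neighbours had an annotated pseudogene, against 57.1% for probe sets in place, whose gaps were shorter (median 212022 against 628092 bases). For 106 of them the pseudogene bore the name of the same gene. Mrps36-ps2 is of that kind and lies beside Taf10 itself, where a probe set named Mrps36 (a gene of chromosome 13) sits between those of Arfip2 and Rrp8.
Where a gene had both kinds of probe set, these mostly moved alike. Changes were averaged where a gene had several probe sets of 1 kind. Of 327 such genes, 267 had changes of the same sign. The median distance between both changes was 0.08 log2 units, and Pearson's r across genes was 0.80. Genes are not independent replicates, and both kinds of probe set were read on the same arrays. For Taf10 the distance was 0.49, and 4 of the 327 genes, Taf10 included, reached that size. Without mutant 3 the distance was 0.32, and 9 of the 327 genes reached it. The others among the 4 were Cdk10, Polr1d and Srsf3, named after their values were seen.

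**Figure D2:**
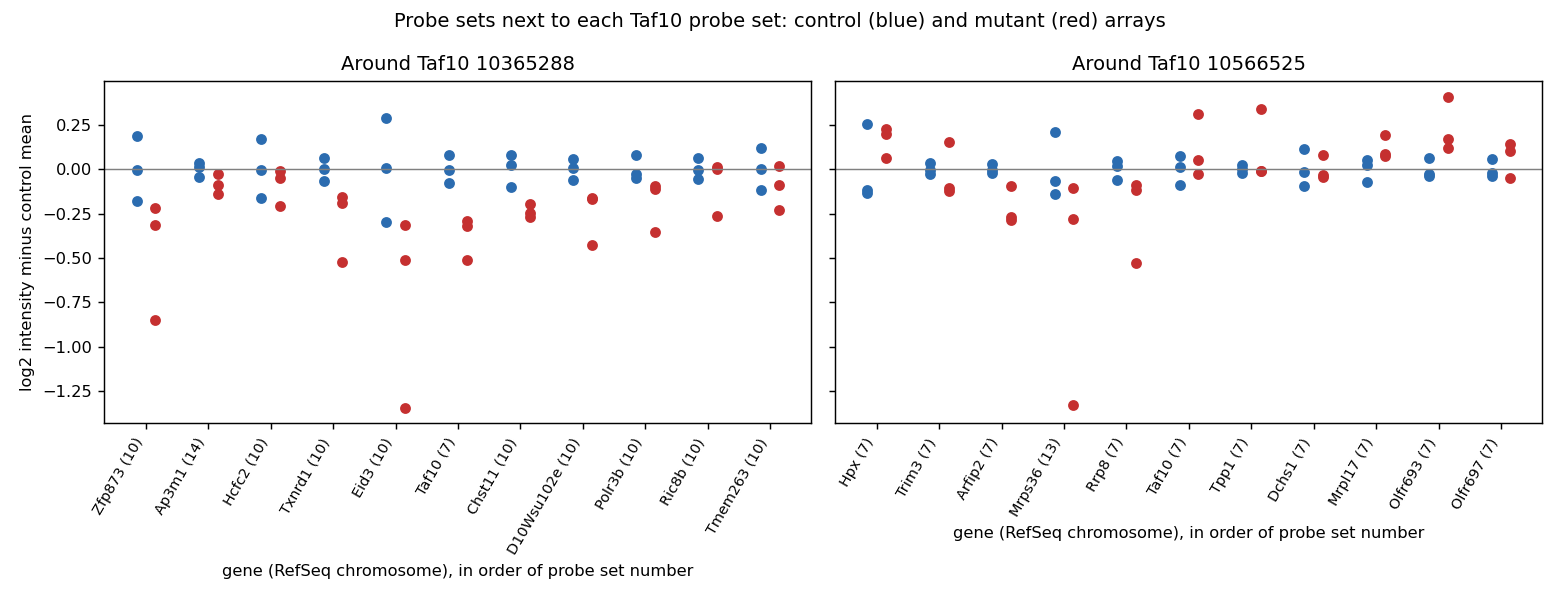
Log2 intensity minus the control mean (y axis) on the control (blue) and mutant (red) arrays for each Taf10 probe set and the 5 probe sets on either side in number order (x axis, with the RefSeq chromosome of each gene). All 10 neighbours of 10365288 had a negative mean change and 4 of the 10 neighbours of 10566525 did, and 0 of the 20 passed limma's threshold.

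Probe sets next to both were read for the same contrast. All 10 neighbours of 10365288 had negative changes, from -0.72 for Eid3 to -0.08 for Ric8b, and 0 passed in limma, with a lowest adjusted p of 0.0951 for Chst11. Of all single-symbol probe sets, 42.0% had a negative change. Mutant 3 was the lowest mutant for 9 of these 10 neighbours. Without it 9 of the 10 had a negative mean change, the lowest at -0.41, against 46.1% of all probe sets. Eid3, a regulator of differentiation, was at -0.72 (SE 0.26) and Chst11, a chondroitin sulfotransferase, at -0.24 (SE 0.07). Among the 5 measured genes on either side of Taf10 in the RefSeq table, 0 of 10 passed in limma, with a median change of 0.08 and 1 higher and 1 lower at an unadjusted p under 0.05. Of all probe sets, 11.4% were higher and 11.4% lower at that unadjusted p. Without mutant 3, 1 of the 10 was called lower, Arfip2, while 2119 of all 16311 probe sets were called in either direction. With array weights Arfip2 was again the 1 called lower, while 3924 of all probe sets were called. Without control 3 and mutant 3 together Hpx was called higher and Arfip2 lower, while 2321 of all probe sets were called. Over all probe sets tested the median change was 0.03. Ilk, the integrin-linked kinase gene that overlaps Taf10 by 32 bases, changed by 0.10 (SE 0.07, limma adjusted p = 0.428). Tpp1, a lysosomal peptidase gene, changed by 0.11 (SE 0.10, limma adjusted p = 0.557).

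Taf8, which encodes the TFIID partner of TAF10, fell in mutant presomitic mesoderm to 71.9% of control (95% interval 63.1% to 82.0%). Its log2 intensities were 8.43, 8.25 and 8.36 in controls 1, 2 and 3 and 7.78, 7.85 and 7.99 in mutants 1, 2 and 3. The groups were separated by 0.26, more than the range within either, and mutant 1 was the lowest array. The mean went from 8.35 ± 0.09 to 7.87 ± 0.11 (SD, n = 3 each), and on the log2 scale Taf8 fell by 0.48 (SE 0.08, limma adjusted p = 0.0194). An exact two-sided permutation test over its 6 arrays reached p = 0.1, the lower limit for groups of 3, as it did for Taf10 10365288, Taf3 and Supt7l. Taf8 ranked 352 of 16311 by p, and 652 of all probe sets had a change of at least its size in either direction.

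Both calls were lost when any single array other than mutant 3 was left out. Without control 1, 2 or 3, or mutant 1 or 2, limma's adjusted p for Taf8 was 0.106, 0.0738, 0.0719, 0.0557 and 0.0604, and without mutant 3 it was 0.00372, with log2 changes from -0.54 to -0.43. For Taf10 10365288 the same leave-outs gave 0.169, 0.126, 0.117, 0.0641 and 0.0823, and 0.0185 without mutant 3, with changes from -0.42 to -0.31. The change of Taf8 was largest without mutant 3, whereas that of Taf10 10365288 was smallest without it. In all, 2 of the 5 member probe sets were lower at an adjusted p under 0.05, and 3.08% of all single-symbol probe sets were (5.96% in either direction).

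**Figure D3:**
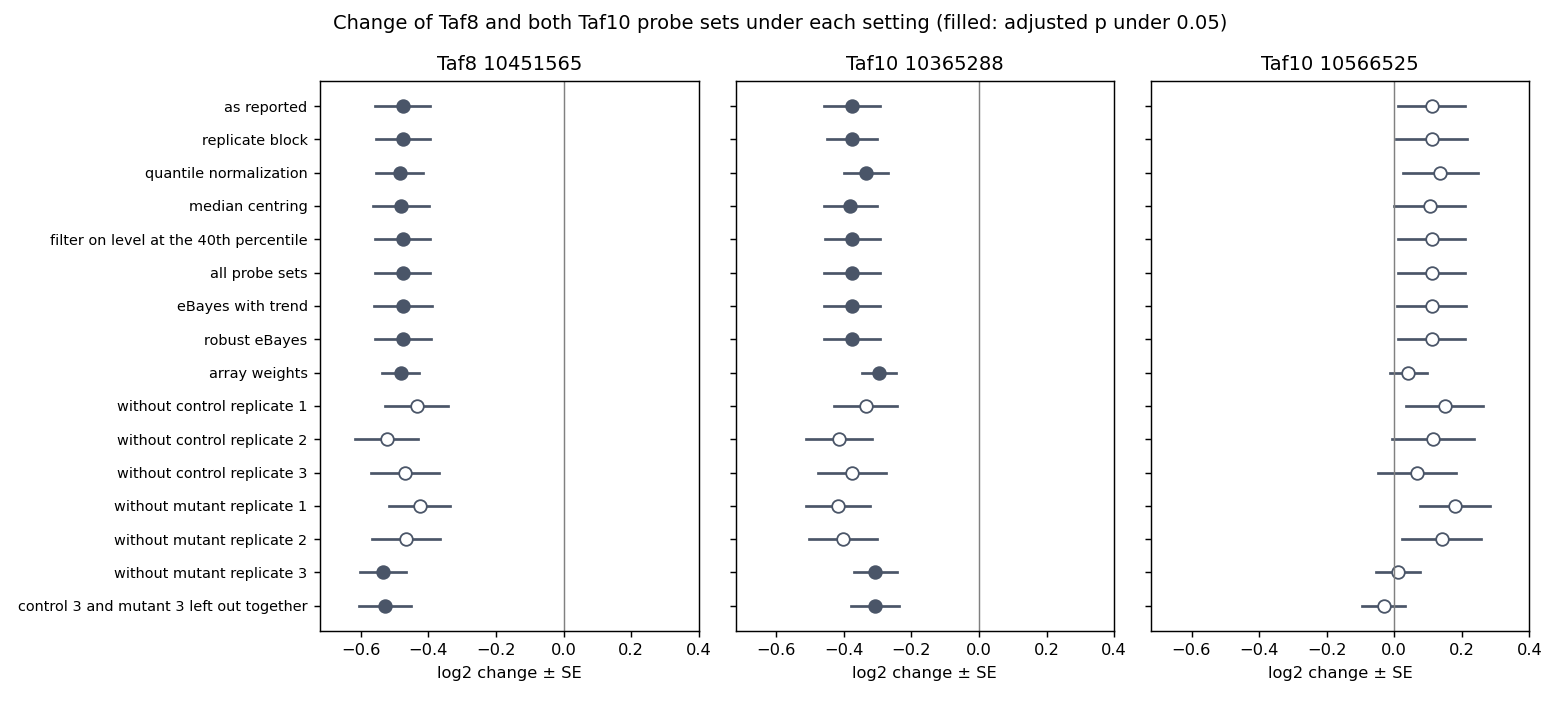
Log2 change ± SE (x axis) of Taf8 and of both Taf10 probe sets under the reported fit and 15 alternatives (rows); filled points passed a limma adjusted p under 0.05. Taf8 and Taf10 10365288 stay left of 0 in each row but pass in only 1 of the 6 rows that leave out a single array, and Taf10 10566525 passes in none.

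Taf3 and Supt7l, which encode the other partners in TFIID and in SAGA, did not pass. Taf3 stood at 9.60, 9.66 and 9.71 in the controls and at 9.72, 9.74 and 9.79 in the mutants. The mutant values all lay above the controls, by only 0.01 at the nearest point. The log2 change was 0.10 (SE 0.06, 95% interval -0.05 to 0.24, limma adjusted p = 0.410), which as a level is 96.5% to 118% of control.
Supt7l stood at 9.60, 9.58 and 9.66 in the controls and at 9.66, 9.67 and 9.86 in the mutants. Mutant 1, the lowest mutant, lay 0.0059 above control 3, the highest control, and mutant 3 was 0.19 above the mean of the other mutants. The log2 change was 0.12 (SE 0.08, 95% interval -0.06 to 0.29, limma adjusted p = 0.393), and 0.05 without mutant 3. Mutant and control values did not overlap for 4 of the 5 member probe sets, and for 32.4% of all single-symbol probe sets.

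Whether members changed unequally was tested within arrays, as the difference between their log2 values, for all 10 pairs of probe sets. For 6 pairs the mutant differences did not overlap the control differences. All were Taf8, or the Taf10 probe set that fell, against Taf3, Supt7l or the other Taf10 probe set. These pairs share probe sets, so their count is not separate from the falls given above. How often differences between other probe sets of the array do not overlap was not tested. Each of the 6 pairs had an exact permutation p of 0.1, the smallest possible. After Benjamini-Hochberg adjustment over the 10 pairs this was 0.167, so no pair could pass. The change of Taf8 minus that of Taf3 was -0.57, and minus that of Supt7l it was -0.59, below the controls in each of the 3 mutant pools. Against Taf3, the Taf8 difference in mutants 1, 2 and 3 lay at -0.64, -0.58 and -0.49 from the control mean, and the controls at -0.10 to 0.14. Against Supt7l it lay at -0.62, -0.55 and -0.60, and the controls at -0.06 to 0.09.
Taf3 and Supt7l had a difference of -0.02 from each other (exact permutation p = 0.7), and of 0.02 without mutant 3. The 2 Taf10 probe sets differed by -0.49, at -0.26, -0.37 and -0.82 in mutants 1, 2 and 3, and by -0.32 without mutant 3. Taf10 10365288 and Taf8 differed by 0.10 (exact permutation p = 0.4), with mutants 1 and 2 at 0.28 and 0.17 and mutant 3 at -0.16. That difference was 0.23 without mutant 3, 0.06 without mutant 2 and 0.0095 without mutant 1. Among the mutants, array 3 was thus the highest for Taf8 and the lowest for Taf10 10365288.

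The other subunits with histone folds in TFIID and SAGA give the setting for these changes. Of 11 measured genes, 4 rose, 1 fell and 6 did not pass, with a median change of 0.42 over 12 probe sets, against 0.03 over all probe sets. Of all single-symbol probe sets, 2.88% were called higher and 3.08% lower. Calls over the whole array, 972 in the reported fit, numbered 50, 77 and 353 without controls 1, 2 and 3. Without mutants 1, 2 and 3 they numbered 515, 385 and 2119. The rises among the 11 genes were 0 without control 1 or control 2, 3 without control 3 or mutant 1, 2 without mutant 2 and 6 without mutant 3. The 1 fall was lost without each array but mutant 3. Those that rose were Taf12, whose protein pairs with TAF4 or TAF4B, with Taf4 and Taf4b themselves, and Taf6, which encodes the partner of TAF9. Taf6 rose 1.71-fold (log2 0.77, SE 0.13, limma adjusted p = 0.0164) and Taf12 1.49-fold (log2 0.58, SE 0.07). The probe set named Taf9 was at 0.04 (SE 0.06), but it too lay away from its gene. Only 1 of its 20 neighbours was on the chromosome of Taf9 (13), and the gap between Lingo2 and Ddx58 in which it sat holds the pseudogene Taf9-ps among others. No other single-symbol probe set was named Taf9. Taf9b, the paralog of Taf9, was at 0.64 (SE 0.16, limma adjusted p = 0.0626), in place on chromosome X. Both Taf13 probe sets were at 0.51 and did not pass, 1 of them (10375973) with 0 of 20 neighbours on the chromosome of Taf13, while Taf11, which encodes the partner of TAF13, was at -0.11. Tada1, which encodes the partner of TAF12 in SAGA, fell by 0.31 (SE 0.07, limma adjusted p = 0.0371).

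**Figure D4:**
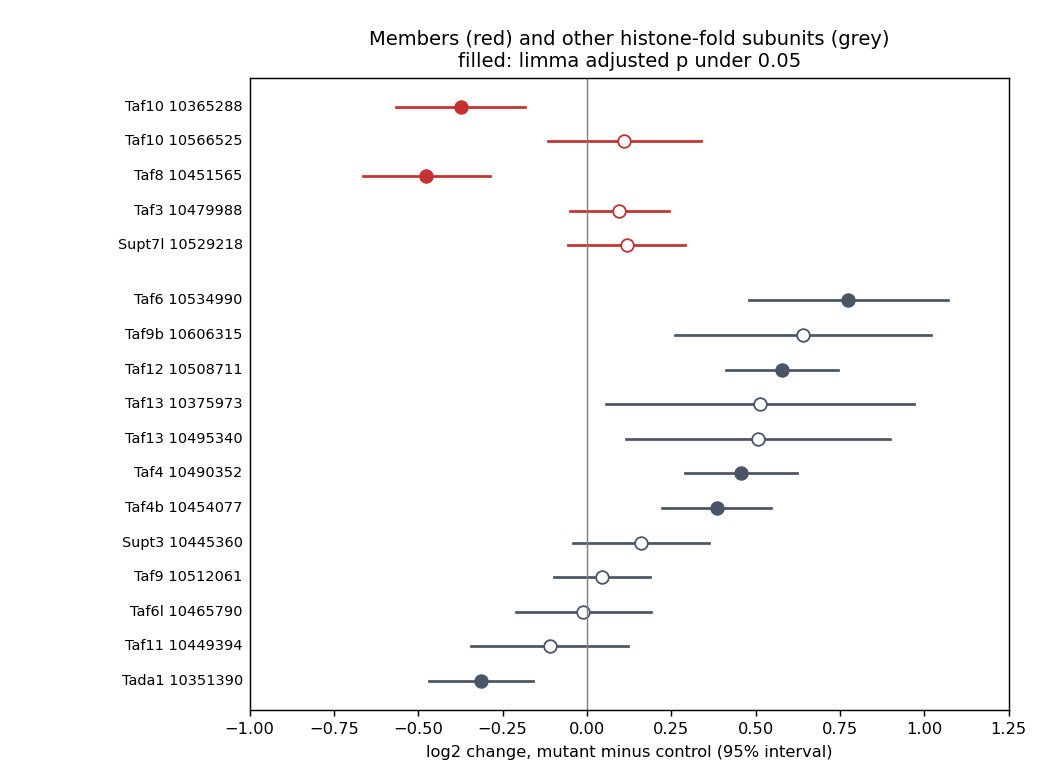
Log2 change, mutant minus control, with its 95% interval (x axis), for the 5 member probe sets (red) and the 12 probe sets of the other histone-fold subunits (grey); filled points passed a limma adjusted p under 0.05. Taf8 at -0.48 and Taf10 10365288 at -0.37 lie lowest, and Taf6 at 0.77 highest; the Taf9 probe set and 1 of the 2 for Taf13 lay away from their genes.

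Across whole complexes, 5 of 13 other TFIID genes rose and 0 fell (median 0.42 over 14 probe sets), and 1 of 19 other SAGA genes rose and 2 fell (median 0.03 over 21). At an unadjusted p under 0.05, limma gave 0 lower and 9 higher of the 14 TFIID probe sets, and 4 lower and 5 higher of the 21 for SAGA. Of all single-symbol probe sets, 11.4% were lower and 11.4% higher at that unadjusted p, and 3.08% were called lower and 2.88% higher. The TFIID rises were Taf5, which rose by 0.62, Taf6, Taf12, Taf4 and Taf4b. Taf2, whose product TAF8 binds, was at 11.09, 11.12 and 11.14 in controls and 11.37, 11.39 and 11.32 in mutants, at 0.25 (SE 0.06, limma adjusted p = 0.0543), and did not pass. The SAGA falls were Taf5l, by 0.33, and Tada1, and the rise was Taf12, which both complexes share. Atxn7l3, of the deubiquitinase module, was at -0.31 (SE 0.08, limma adjusted p = 0.0703). The TFIID rises were 0 without control 1 or control 2, 4 without control 3 or mutant 1, 3 without mutant 2 and 8 without mutant 3. The SAGA falls were 0 without each array but mutant 3, where they were 3. The SAGA rises were 0 without control 1 or control 2, 1 without control 3, mutant 1 or mutant 2, and 3 without mutant 3. Over all 16311 probe sets, calls in either direction numbered 50, 77 and 353 without controls 1, 2 and 3. They numbered 515, 385 and 2119 without mutants 1, 2 and 3, and 3924 with array weights, against 972 in the reported fit. With array weights 8 TFIID genes rose and 0 fell, and 4 SAGA genes rose and 4 fell. Each of these counts includes every measured gene of the list, and Taf12, Taf9 and Taf9b stand in both lists.

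The genes most like each member over the 6 arrays were found by the root mean square difference of log2 values, each probe set centred on its own mean. For Taf8 they were Fam98b (0.0314), Rab4b (0.0330) and Zfp57 (0.0378). For Taf10 10365288 they were Acat1 (0.0207), Usp5 (0.0281) and Ddx54 (0.0316), and for 10566525 Kif17 (0.0172), R3hdm2 (0.0223) and Olfr576 (0.0239). Taf3 lay nearest to Olfr608, Atp8a2 and Wdr64, and Supt7l to Abhd15, Fam189b and Gpat4, all within 0.0151. Within the family, Taf3 and Supt7l were each other's nearest (0.0527), Taf8 and Taf10 10365288 were 0.142 apart, and Taf10 10566525 lay nearest to Supt7l (0.0777). Probe sets that vary little between arrays lie close by this measure, so a small distance alone does not show a shared response. With so many probe sets and 6 arrays, distances of this size describe these arrays only.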

How the data were processed

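The authors deposited 1 table of intensity values on a linear scale, 18064 probe sets by 6 arrays, made with RMA (background correction, normalization between arrays, summary over probes), per the submitters' processing notes. RMA's version, chip description and probe set filter were not given in the sources used here. Biotinylated cDNA was made from 150 ng of RNA, per the labels' protocols. Array medians were 307.9 to 317.5. The log2 of each value was used without renormalizing. Of the probe sets, 16311 had 1 symbol, 734 several and 1019 none, and 16281 of the first matched RefSeq (GRCm38.p6) by gene ID. The deposited table carries no coordinates.

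Mutant and control were compared with limma 3.58.1 in R 4.3.3 (lmFit, eBayes, no covariate), adjusted over 16311 probe sets by Benjamini-Hochberg and called at 0.05. The script was tested on simulated data. The number of arrays limits the precision. Alternatives were a replicate block, quantile normalization, median centring, eBayes with a trend or made robust, array weights, a level filter at the 40th percentile, all probe sets together, each array left out, and both arrays numbered 3 left out. The members and lists were chosen with earlier results of these data known. By rule the text names all members, called list genes with the 2 next by p, and the 3 genes most like each member. The promoter motifs, the place of probe sets over the whole array and the neighbour and place counts without mutant 3 were chosen after seeing the data. Other genes, among them neighbours and histone-fold subunits that did not pass, were named after their values were seen.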

Additional observations from a re-analysis of the deposited data

How the results depend on the processing

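All 15 alternatives kept the direction of Taf8, Taf10 10365288, Taf3 and Supt7l. Besides the 6 fits that leave out 1 array there were 9, among them the fit without control 3 and mutant 3 together. These 9 kept the calls of Taf8 (limma adjusted p 0.000277 to 0.0262, change -0.53 to -0.48) and Taf10 10365288 (0.00269 to 0.0431, change -0.38 to -0.30). The -0.53 of Taf8 came from the fit without both arrays numbered 3. None of the 15 called Taf3, Supt7l or Taf10 10566525. Taf10 10566525 turned to -0.032 without control 3 and mutant 3 together. Leaving out 1 array lost the call of Taf8 in 5 of 6 fits, and over the 6 its change ran from -0.54 to -0.43, and that of Taf10 10365288 in 5 of 6, with a range of -0.42 to -0.31. Called probe sets over the whole table, 972 in the reported fit, were 50 to 2119 with 1 array left out, 3924 with array weights and 2321 without both arrays numbered 3. Called TFIID and SAGA genes other than the members, 7 in the reported fit, were 0 to 12 with 1 array left out, 14 with array weights and 11 without both arrays numbered 3. Why the counts differ between fits was not tested. The correlations of same-numbered control and mutant deviations were 0.134, 0.0769 and 0.316. Differently numbered pools were not compared, so whether the replicate numbers pair the pools was not tested. With the replicate block limma gave 1189 calls and changed no member's call. In that fit Taf8 had a limma adjusted p of 0.0262 and Taf10 10365288 one of 0.0400. With that block 6 TFIID genes rose and 0 fell, and 3 SAGA genes rose and 2 fell.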

Other observations

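The probe set named Mrps36 (10566514), which sits beside Taf10 in number order, was at -0.10, -0.28 and -1.33 from the control mean in mutants 1, 2 and 3, and the controls lay at -0.14 to 0.21 (log2 change -0.57, SE 0.29, limma adjusted p = 0.287). Mutant 3 was likewise the lowest array for Eid3, next to the other Taf10 probe set, at -1.34 against -0.51 and -0.32 in mutants 1 and 2.

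For the 327 genes with probe sets both in place and away from the gene, changes were averaged over the probe sets of each kind. A kind counted as called where any of its probe sets passed a limma adjusted p under 0.05. In 13 genes both kinds were called, in 9 only the one in place and in 18, Taf10 among them, only the one away from the gene. Of all single-symbol probe sets, 5.96% were called in either direction. Cdk10, a cyclin-dependent kinase, had the widest distance, 0.66, with 0.36 in place and -0.30 away from it. Srsf3, a splicing factor, changed by -0.65 in place and by -0.11 away from it, and Polr1d, a subunit of RNA polymerases I and III, by -0.35 and 0.17.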
